A study of Rattus norvegicus with 9 samples.

Results

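The transporters described here move sugars, phosphate, carboxylates, sulphate, vitamins and nucleosides across cell membranes. They were chosen by name, as the array genes of the families Slc2a, Slc5a, Slc13a, Slc17a, Slc20a, Slc23a, Slc28a, Slc29a and Slc34a without Slc2a1 and Slc5a3, and make up 52 of the 26115 gene names on the array, with 63 probes. The rule used no measured value. RNA of whole rat kidney was hybridised to 9 one-colour Agilent arrays, 1 array per kidney. The donors were Fisher F344 rats, of an age that the sources used here do not give, and all kidneys had undergone 20 min. of warm ischaemia by clamping before removal. The 5 control kidneys (NP) were not perfused, by the study's methods and the treatment label, although their titles speak of perfusion with Belzer solution (BS). The 4 MSC kidneys were perfused for 4 hrs at 4°C with BS to which 3000000 mesenchymal stromal cells had been added, taken from bone marrow of EGFP transgenic Sprague Dawley rats. The effects of cold perfusion and of the cells therefore cannot be told apart. A further MSC array was discarded by the authors for poor quality and was not analysed here.

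In the kidney most of these genes belong to the proximal tubule, which takes back nearly all filtered glucose, phosphate, citrate and ascorbate. Many sodium-coupled carriers (Slc5a, Slc13a, Slc23a, Slc28a, Slc34a) work at the brush border and pull their substrate into the cell along the sodium gradient. Slc13a3, in contrast, brings its substrates in from the blood side. Of the carriers that need no sodium (Slc2a, Slc29a), some, such as Slc2a2, let the substrate leave towards the blood. Others, such as Slc2a8 and Slc29a3, lie mostly on membranes inside the cell. The Slc17a family holds urate and organic anion carriers of the same cells, and the Slc20a family holds phosphate carriers found in most cell types.

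Of the 52 genes, 35 passed the filter on low values and were tested, and 17 did not. No member passed the study's threshold in limma (FDR below 0.05 and more than 1.5-fold), and neither did any of the 13766 genes tested (0%). At an unadjusted limma p under 0.05, 6 members were higher in MSC than in NP kidneys (17.1% of 35, against 6.65% of all genes) and 2 were lower (5.71%, against 5.11%). The higher ones were Slc5a2, Slc5a11, Slc2a8, Slc13a1, Slc29a1 and Slc29a3, and the lower ones were Slc23a1 and Slc13a2. In 4 of the 35 members tested every MSC array lay above every NP array (11.4%, against 3.16% of all genes). In 1 of them every MSC array lay below (2.86%, against 2.14%). In total 20 of the 35 members had a higher mean in MSC kidneys (57.1%, against 48.6%), and the median log2 fold change was 0.01, beside -0.0056 over all genes. The count of higher members depended on single choices. It was 2 (Slc2a8 and Slc5a11) when arrays were scaled on their medians and 3 (those and Slc5a2) without MSC 1. With MSC 3 and MSC 4 both left out it was 4, of which Slc13a1, Slc5a11 and Slc5a2 were among the 6 and Slc17a4 was not.

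**Figure D1:**
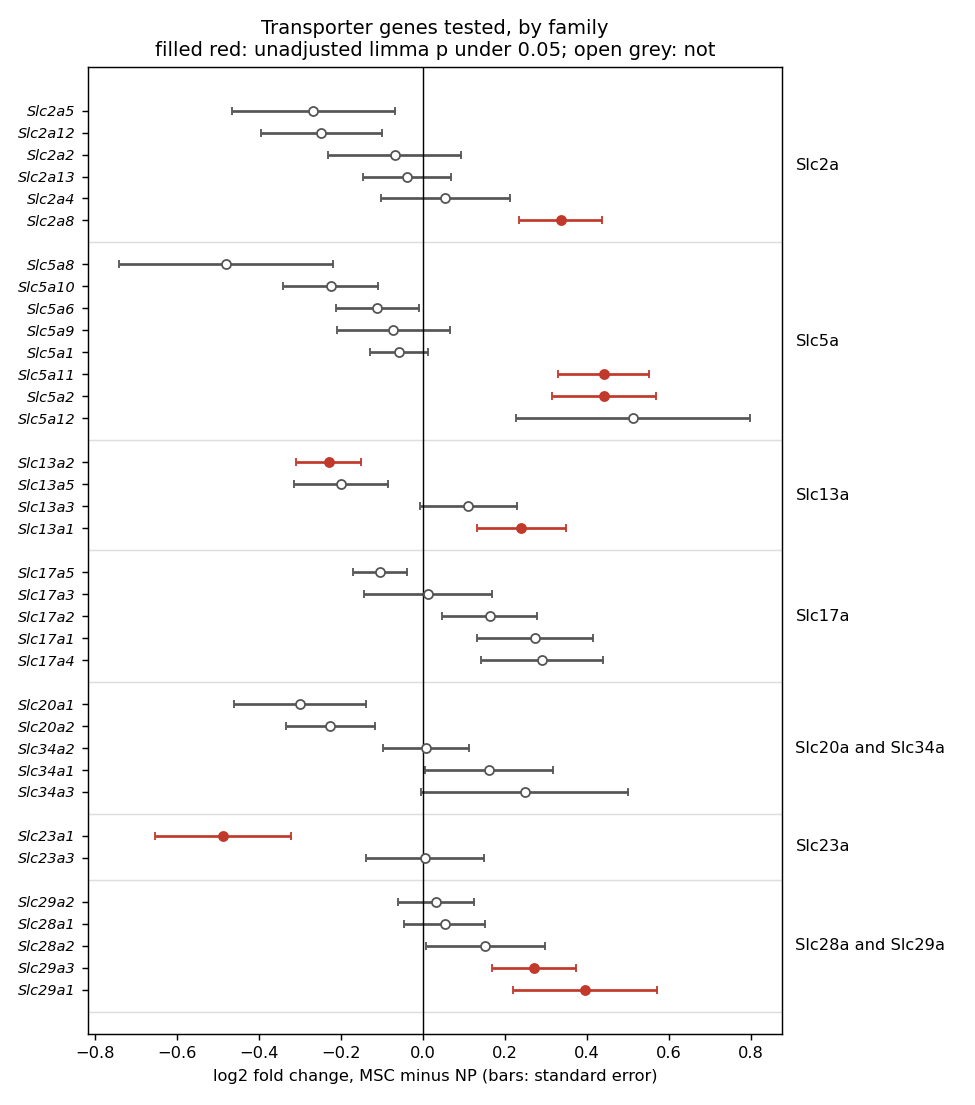
Log2 fold change of MSC against NP kidneys (horizontal axis, bars show the standard error) for the 35 transporter genes tested, grouped by family. The 8 genes in filled red had an unadjusted limma p under 0.05, and both directions occur in the Slc13a family.

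By the scan date in the scanner files the arrays fell into 2 groups, taken here as slides, as no slide label was read. The first held NP 1 to 3 with MSC 1 and 2, and the second NP 4 and 5 with MSC 3 and 4. A fit without MSC 3 and MSC 4 therefore sets MSC kidneys of the first slide alone against NP kidneys of both. No gene spot was saturated, and the share of gene spots well above background was between 65.6% and 74.3% per array. All 12 proximal tubule markers examined passed the filter, and their summed intensity was between 1440000 and 2088000 in NP and between 1731000 and 2105000 in MSC kidneys. Of the 12, 9 were higher in MSC kidneys and 1 (Aqp1) at an unadjusted p under 0.05. Of the markers measured, 3 of 4 of thick ascending limb, 3 of 3 of distal convoluted and connecting tubule, 4 of 4 of intercalated cells, 4 of 4 of principal cells, 4 of 4 of mesenchymal stromal cells, 4 of 5 of leukocytes, 2 of 4 of endothelium and 0 of 4 of podocytes had a higher mean in MSC kidneys. Their median log2 fold changes were, in the same order, 0.32, 0.59, 0.75, 0.27, 0.37, 0.22, 0.05 and -0.30, and at an unadjusted limma p under 0.05 the counts higher were 2, 2, 3, 1, 1, 0, 0 and 0. All 3 red cell genes had a lower mean, lowest in MSC 1 and MSC 3, and all 6 fat genes measured had a higher one, most in MSC 3 and MSC 4. Their median log2 fold changes were -1.74 and 1.56. At an unadjusted limma p under 0.05, 3 red cell genes were lower and 2 fat genes were higher. The part of these shifts in the results below was not tested unless a value is given. In whole tissue, fewer cells of a type and less RNA per cell cannot be told apart. Nothing in the labels says more of the replicates than that each is a kidney, so the p-values measure the spread between these 9 samples.

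Some of the 60-base probes that results below turn on are given here, 5′ to 3′ on the strand of the gene, with their positions on the rat build rn4 that the array files use. Probes that have no reading frame free of stop codons, or that may lie outside the coding sequence, such as the Slc5a2 probe at base 2194, are not printed. The letters are all in lower case because no part of a probe is singled out. The pair from Slc5a11 gave differing results, as did the Slc20a2 probes against another probe of that gene, and the probes from Slc2a8, Slc29a3 and Slc5a12 carry differences in which the NP and MSC arrays did not overlap.
Slc5a11, from base 589 of the transcript, chr1:182113511-182113570, plus strand: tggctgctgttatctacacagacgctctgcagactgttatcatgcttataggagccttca
Slc5a11, from base 1767, chr1:182131109-182133398, plus strand: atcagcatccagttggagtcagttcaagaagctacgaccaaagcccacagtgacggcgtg
Slc20a2, from base 1976, chr16:73956331-73956390, minus strand: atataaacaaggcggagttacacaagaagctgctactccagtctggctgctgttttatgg
Slc20a2, from base 2295, chr16:73950192-73950251, minus strand: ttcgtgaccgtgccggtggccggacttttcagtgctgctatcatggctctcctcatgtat
Slc2a8, from base 1001, chr3:11964987-11965490, minus strand: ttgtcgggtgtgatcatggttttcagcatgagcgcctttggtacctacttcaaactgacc
Slc29a3, from base 1285, chr20:28042410-28042469, minus strand: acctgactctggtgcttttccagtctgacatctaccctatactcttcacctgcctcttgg
Slc5a12, from base 1084, chr3:96087170-96089799, plus strand: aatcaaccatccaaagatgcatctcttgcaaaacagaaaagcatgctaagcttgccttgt
The probes of Slc5a11 at base 1767, of Slc2a8 and of Slc5a12 reach over 2290, 504 and 2630 bases of the genome, so that each joins exons across an intron. The other 4 lie within an unbroken stretch of 60 bases.

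Slc5a2 encodes SGLT2, the high-capacity sodium-glucose carrier of the early proximal tubule. Its normalized log2 intensity was 17.04, 16.60, 16.72, 16.98 and 17.23 in NP 1 to 5, and 17.34, 17.34, 17.44 and 17.29 in MSC 1 to 4. Every MSC kidney lay above every NP kidney, and the MSC kidneys differed little from each other, with an SD of 0.07 beside 0.25 in NP. The log2 fold change was 0.44 (SE 0.13, 1.36-fold higher in MSC), with a limma p of 0.00574, an FDR of 0.33 and an exact two-sided permutation p of 0.0159. With 5 NP and 4 MSC arrays, the smallest exact p possible is 0.00794. The difference was larger on the first slide (0.56) than on the second (0.26). Slc5a1, which encodes SGLT1, the high-affinity carrier further down the proximal tubule, was within 0.06 of its NP mean (log2 fold change -0.06, SE 0.07, limma p 0.43). Its values, from 8.67 to 8.89, were near the filter, which it passed on 4 arrays, the fewest allowed. Slc2a2 encodes GLUT2, through which glucose leaves the cell on the blood side. Its values overlapped between the groups, from 14.56 to 15.03 in NP and from 14.20 to 15.04 in MSC, with MSC 4 lowest of all 9 arrays (log2 fold change -0.07, SE 0.16, limma p 0.68).

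Slc5a11 encodes SMIT2, a sodium-coupled carrier of myo-inositol, and gave 2 readings that differ. The probe at base 589 read 9.73, 9.64, 9.90, 9.93 and 10.20 in NP 1 to 5 and 10.30, 10.32, 10.36 and 10.31 in MSC 1 to 4. By that probe every MSC kidney was above every NP kidney (log2 fold change 0.44, SE 0.11, 1.36-fold, limma p 0.00263, FDR 0.33, exact permutation p 0.0159). The probe at base 1767 read 13.35, 13.42, 13.60, 13.34 and 13.15 in NP and 13.35, 13.41, 13.11 and 13.25 in MSC kidneys. By the second probe the groups overlapped, and the log2 difference was -0.09 (SE 0.10, limma p 0.39). The differences of the probes lay 0.53 apart on the log2 scale, a description since Slc5a11 was named for probes that disagree.

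Among the other Slc5a members, Slc5a12 and Slc5a8 encode the low- and high-affinity sodium-coupled carriers of lactate and other monocarboxylates. The main Slc5a12 probe, at base 3920, read 10.63, 12.12, 11.69, 12.07 and 12.06 in NP 1 to 5 and 12.21, 12.47, 12.28 and 11.95 in MSC 1 to 4. NP 1 was lower than all other arrays, and the remaining NP kidneys overlapped the MSC kidneys (log2 fold change 0.51, SE 0.29, limma p 0.10, and 0.24 without NP 1). NP 1 was also lowest in the mean proximal tubule marker score, at -0.34 beside -0.03 to 0.12 in the other arrays. It was likewise lowest for thick ascending limb (-0.35), endothelium (-0.48) and mesenchymal stromal cells (-0.65), but not for the other cell types examined. The Slc5a12 probe at base 1084 read 10.18, 10.69, 10.82, 10.79 and 10.91 in NP and 11.06, 11.37, 11.06 and 11.11 in MSC kidneys. By this probe all MSC arrays lay above all NP arrays, and the log2 difference was 0.47 (SE 0.15, limma p 0.0100, FDR 0.33, exact permutation p 0.0159). Slc5a8 had values of 12.17, 12.59, 11.98, 11.62 and 11.66 in NP and 11.51, 12.24, 11.05 and 11.30 in MSC kidneys. MSC 2 lay among the NP kidneys while the other MSC kidneys lay below all of them (log2 fold change -0.48, SE 0.26, 1.39-fold lower, limma p 0.096). The limma p was 0.0400 with slide as a block. Over the alternatives the value ranged from -0.72 (limma p 0.0100) without MSC 2 to -0.13 (limma p 0.67) without MSC 3 and MSC 4. Slc5a10, a mannose and fructose carrier of the kidney, gave a log2 fold change of -0.23 (SE 0.12, limma p 0.083). It was -0.29 without NP 2 (limma p 0.0268) or without MSC 1 (limma p 0.0413), and -0.15 without MSC 4 (limma p 0.24). Over the family, 8 of 12 genes were tested, 3 were higher and 5 lower in MSC kidneys, and the median log2 fold change was -0.07. The remaining Slc5a genes tested, Slc5a6 and Slc5a9, had log2 fold changes of -0.11 and -0.07.

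Slc2a8 encodes GLUT8, a hexose carrier kept mostly on membranes inside the cell. Its values were 9.27, 9.01, 9.17, 9.30 and 9.49 in NP 1 to 5 and 9.54, 9.54, 9.70 and 9.53 in MSC 1 to 4. All MSC kidneys were above all NP kidneys, NP 5 by the least (log2 fold change 0.34, SE 0.10, 1.26-fold, limma p 0.00816, FDR 0.33, exact permutation p 0.0159). The difference was 0.40 on the first slide and 0.23 on the second. Over the alternatives it ranged from 0.24 with array weights to 0.59 with scaling on the 75th percentile. Slc2a12, a further hexose carrier, had log2 values of 11.71, 12.33, 11.91, 11.79 and 11.61 in NP and 11.52, 11.86, 11.53 and 11.57 in MSC kidneys, and the groups overlapped (log2 fold change -0.25, SE 0.15, limma p 0.12, and -0.13 without NP 2). Slc2a5, the fructose carrier GLUT5, gave -0.27 (SE 0.20, limma p 0.21).

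Slc2a4 encodes GLUT4, the insulin-regulated glucose carrier of fat and muscle. Its values were 11.23, 10.78, 10.91, 10.78 and 10.96 in NP 1 to 5 and 10.59, 10.84, 11.32 and 11.19 in MSC 1 to 4. The MSC kidneys fell on both sides of the NP kidneys, and the log2 fold change was 0.05 (SE 0.16, limma p 0.74). It was -0.26 on the first slide and 0.39 on the second. MSC 3 and MSC 4, with the higher values, also had the highest scores of the fat markers, 2.66 and 1.83 beside -1.39 to 0.17 in the other 7 arrays. Of 8 fat markers 6 were measured, with summed intensities from 5506 to 12800 in NP and from 6022 to 79050 in MSC kidneys. Without MSC 3 and MSC 4 the Slc2a4 log2 fold change was -0.22 (SE 0.15, limma p 0.19). Of 5 muscle markers only Mb passed the filter, and Ckm, Acta1, Myh2 and Tnnt3 did not. Over the Slc2a family 6 of 11 genes were tested, 2 were higher and 4 lower, and the median log2 fold change was -0.05. It was -0.13 without MSC 2 and 0.0053 without NP 2.

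The Slc13a family divided. Slc13a1 encodes the sodium-sulphate carrier NaS1 of the brush border. Its values were 14.48, 14.59, 14.81, 14.67 and 14.80 in NP 1 to 5 and 15.09, 14.94, 14.94 and 14.67 in MSC 1 to 4. Only MSC 4 lay among the NP kidneys, and the other MSC kidneys were above all of them (log2 fold change 0.24, SE 0.11, 1.18-fold, limma p 0.0494, FDR 0.42, exact permutation p 0.0794). The difference was 0.39 on the first slide and 0.07 on the second, and with slide as a block the limma p was 0.0558. Slc13a2 encodes NaDC1, which takes citrate and other dicarboxylates out of the urine. It read 12.97, 12.93, 13.02, 13.05 and 12.89 in NP kidneys and 12.63, 12.72, 12.71 and 12.91 in MSC kidneys. MSC 1 to 3 were below every NP kidney and MSC 4 lay just above NP 5 (log2 fold change -0.23, SE 0.08, 1.17-fold lower, limma p 0.0166, FDR 0.35, exact permutation p 0.0159). Slc13a3, the carrier NaDC3 that brings dicarboxylates in from the blood side, had a log2 fold change of 0.11 (SE 0.12, limma p 0.37), and Slc13a5, a citrate carrier, one of -0.20 (SE 0.11, limma p 0.11). With 4 of 5 genes tested, the family median was -0.04.

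Slc23a1 encodes SVCT1, the sodium-coupled carrier that takes ascorbate back from the urine. Its values were 13.66, 14.51, 14.40, 14.09 and 13.90 in NP 1 to 5 and 13.75, 13.62, 13.65 and 13.47 in MSC 1 to 4. NP 1 lay within the MSC range and the other NP kidneys lay above it. The log2 fold change was -0.49 (SE 0.17, 1.40-fold lower, limma p 0.0147, FDR 0.34, exact permutation p 0.0317), and it was similar on both slides (-0.50 and -0.43). Without MSC 3 and MSC 4, which leaves fewer arrays and only MSC kidneys of the first slide, it was -0.43 with a limma p of 0.099. Slc23a3, whose substrate is less well known, had nearly equal means (12.44 and 12.44, limma p 0.98), with NP 2 the lowest array at 11.93. Slc23a2, the ascorbate carrier of most other tissues, was not well above background on any array.

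By the probes kept for each gene, phosphate carriers gave no member at an unadjusted p under 0.05 in MSC against NP kidneys, and Slc20a2 depended on the probe, as given below. Slc34a1 and Slc34a3 encode NaPi-IIa and NaPi-IIc, the brush border carriers that parathyroid hormone and FGF23 withdraw from the membrane. Slc34a1 read 17.27, 17.99, 17.86, 17.89 and 17.73 in NP 1 to 5 and 17.69, 17.98, 17.78 and 18.17 in MSC 1 to 4. NP 1 was lowest, and the other NP kidneys overlapped the MSC kidneys (log2 fold change 0.16, SE 0.16, limma p 0.33, and 0.04 without NP 1). Slc34a3 read 15.12, 14.25, 14.86, 15.35 and 15.52 in NP kidneys and 15.51, 15.18, 15.54 and 14.85 in MSC kidneys. Its difference was 0.60 on the first slide and -0.25 on the second, and 0.25 over all arrays (SE 0.25, limma p 0.35). Without NP 2 it was 0.05. Slc20a1 encodes PiT-1, a phosphate carrier of most cells, and gave a log2 fold change of -0.30 (SE 0.16, limma p 0.092). It was -0.46 (limma p 0.00704) without MSC 2, -0.18 without MSC 3 and -0.06 (limma p 0.74) without MSC 3 and MSC 4.

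Slc20a2, which encodes the related carrier PiT-2, had 3 probes that did not move together. The probe at base 3478, which was kept for the gene, read 14.23, 14.30, 14.09, 13.78 and 13.96 in NP 1 to 5 and 13.92, 13.80, 13.80 and 13.87 in MSC 1 to 4. The MSC kidneys lay within the lower part of the NP range (log2 fold change -0.23, SE 0.11, limma p 0.065). The value was -0.30 (limma p 0.0121) without NP 4, and as weak as -0.17 with another single array left out. The probe at base 2295 read 9.25, 9.08, 9.42, 9.27 and 9.41 in NP and 9.56, 9.41, 9.54 and 9.55 in MSC kidneys. Here 3 of 4 MSC kidneys were above all NP kidneys (log2 difference 0.23, SE 0.09, limma p 0.0280, FDR 0.39, exact permutation p 0.0476). The probe at base 1976 did not pass the filter, although it was well above background on all arrays, and its difference was 0.20 (exact permutation p 0.0476). The log2 value at base 2295 minus that at base 3478 was higher in every MSC kidney than in any NP kidney, by 0.45 on average, which is a description since Slc20a2 was named for this disagreement. With normexp background or scaling on the 75th percentile the probe at base 2295 was the more variable and stood for the gene, and the log2 fold change of Slc20a2 was then 0.27 (limma p 0.0257) and 0.37 (limma p 0.0127). The 5 genes of the Slc20a and Slc34a families, all tested, had a median log2 fold change of 0.01.

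**Figure D2:**
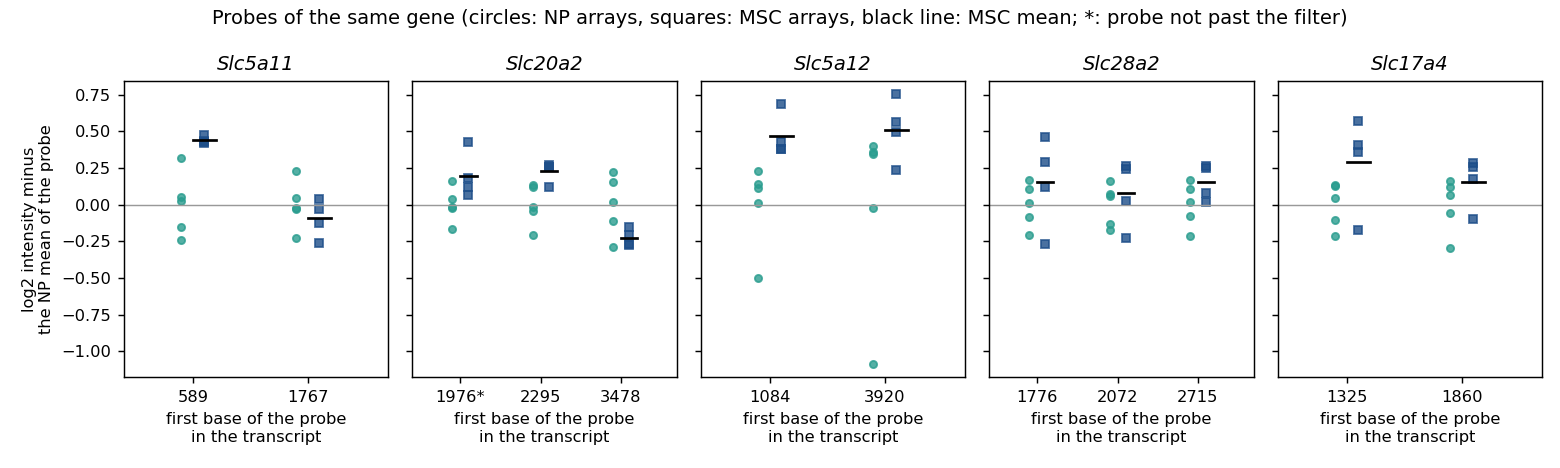
Normalized log2 intensity of each array minus the NP mean of the same probe (vertical axis), for the 5 genes with more than 1 probe past the filter, by the first base of the probe in the transcript (horizontal axis). The Slc5a11 probes give MSC means of 0.44 and -0.09, and the Slc20a2 probes give 0.20, 0.23 and -0.23, while the probes of Slc5a12, Slc28a2 and Slc17a4 have means above 0 throughout.

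Of the 7 nucleoside carriers of the Slc28a and Slc29a families 5 were tested. All 5 had a higher mean in MSC kidneys, with a median log2 fold change of 0.15 (0.049 without MSC 3 and 0.26 without MSC 4). Slc29a1 encodes ENT1, the equilibrative carrier that clears extracellular adenosine. Its values were 11.25, 11.73, 11.45, 11.99 and 11.95 in NP 1 to 5 and 12.07, 11.72, 12.17 and 12.31 in MSC 1 to 4. MSC 2 overlapped the NP kidneys and the other MSC kidneys were above all of them (log2 fold change 0.39, SE 0.18, 1.31-fold, limma p 0.0480, FDR 0.42, exact permutation p 0.103). ENT1 is known from endothelium and red cells as well as from tubules. The endothelial marker Emcn read less in NP 1 than in the other NP kidneys, at 11.45, 11.17, 11.95 and 11.96 in NP 2 to 5, and 11.80, 11.42, 12.21 and 12.28 in MSC kidneys. Its log2 fold change was 0.48 (SE 0.28, limma p 0.11), while those of the other endothelial markers were 0.14 for Kdr, -0.05 for Cdh5 and -0.18 for Pecam1. That of Eng, a stromal marker also found on endothelium, was 0.49 (SE 0.25, limma p 0.078). Of the 4 endothelial markers 2 were higher in MSC kidneys, with summed intensities from 20620 to 35370 in NP and from 21530 to 35330 in MSC kidneys. The red cell genes Hba1, Hbb and Alas2 had log2 fold changes of -1.80, -1.68 and -1.74. The part of these cells in the Slc29a1 difference was not tested. Without MSC 3 and MSC 4 the Slc29a1 value was 0.22 (SE 0.22, limma p 0.35). Slc29a3 encodes ENT3, a nucleoside carrier of lysosomes and other inner membranes. It read 13.29, 12.97, 13.43, 13.42 and 13.32 in NP kidneys and 13.59, 13.56, 13.48 and 13.59 in MSC kidneys. All MSC kidneys were above all NP kidneys, MSC 3 by the least (log2 fold change 0.27, SE 0.10, 1.21-fold, limma p 0.0245, FDR 0.38, exact permutation p 0.0238). Slc28a1, the pyrimidine-selective concentrative carrier CNT1, gave 0.05 (SE 0.10, limma p 0.60). The 3 probes of Slc28a2, the purine-selective CNT2, gave log2 differences of 0.15, 0.08 and 0.16, and the array file places the first of them at another position on chromosome 3 than the other 2.

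**Figure D3:**
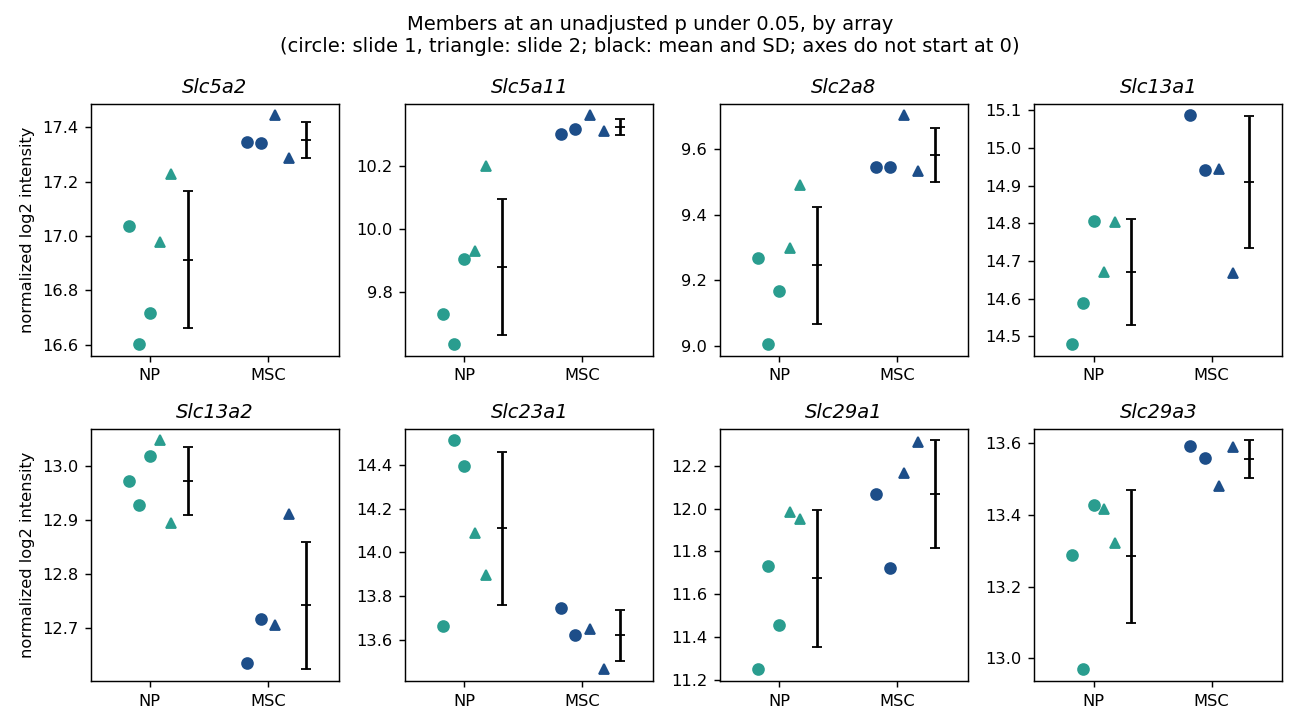
Normalized log2 intensity by array of the 8 members with an unadjusted limma p under 0.05 (vertical axes do not start at 0). Circles mark slide 1, triangles slide 2, and the black marks the mean and SD of 5 NP and 4 MSC kidneys. The groups do not overlap for Slc5a2, Slc5a11, Slc2a8 and Slc29a3 and overlap by 1 or more arrays for the others.

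In the Slc17a family 5 of 9 genes were tested, 4 had a higher mean in MSC kidneys and the median log2 fold change was 0.16 (0.07 without NP 2), but none had an unadjusted limma p under 0.05. Slc17a5 encodes sialin, which exports sialic acid from lysosomes. It read 13.36, 13.38, 13.43, 13.40 and 13.40 in NP 1 to 5 and 13.31, 13.26, 13.23 and 13.36 in MSC 1 to 4. Every MSC kidney was below every NP kidney, MSC 4 by less than 0.01, and the exact permutation p was 0.00794, the smallest possible. The log2 fold change was only -0.11 (SE 0.07). The limma fit, which draws the variance of a gene towards that of the other genes, gave a p of 0.14. Slc17a1 and Slc17a3 encode NPT1 and NPT4, which release urate and organic anions into the urine. Slc17a1 had MSC values from 12.55 to 12.66, with an SD of 0.05, inside the NP range of 11.93 to 12.62 except for MSC 2 (log2 fold change 0.27, SE 0.14, limma p 0.081). It was 0.17 (limma p 0.16) without NP 2 and 0.35 (limma p 0.0334) without NP 4. Slc17a3 gave 0.01 (SE 0.16, limma p 0.94). Slc17a4, an intestinal and renal anion carrier, gave 0.29 (SE 0.15, limma p 0.078) overall. On the first slide its difference was 0.55 and on the second -0.01. MSC 4, at 9.88, lay below the other MSC kidneys (10.41 to 10.62), and without it the value was 0.44 (limma p 0.00290). With another single array left out the Slc17a4 value was as low as 0.20. The other Slc17a4 probe past the filter gave 0.16 (SE 0.12, limma p 0.21).

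**Figure D4:**
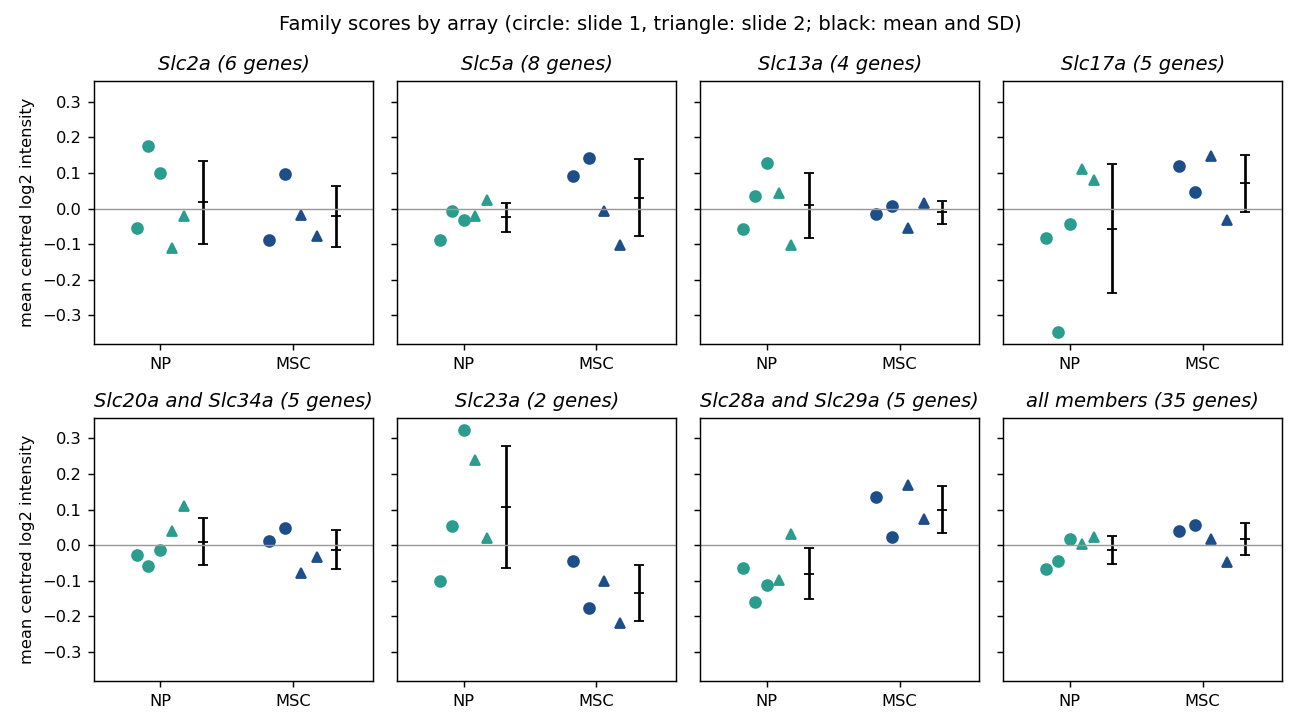
Mean centred log2 intensity of the genes tested in each family, by array (circles slide 1, triangles slide 2, black mean and SD of 5 NP and 4 MSC kidneys). In the Slc28a and Slc29a families the mean was -0.08 in NP and 0.10 in MSC kidneys, with NP 5 at 0.03 above MSC 2 at 0.02, and over all 35 genes it was -0.01 and 0.02.

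Across slides, 26 of the 35 members (74.3%) had the same sign of the MSC minus NP difference on both, beside 64.5% of all genes tested. The spread was smaller in MSC than in NP kidneys for 25 of the 35 members (71.4%), close to the 73.9% of all genes. NP 2 was the lowest or highest NP array for 23 members (65.7%, beside 59.6% of all genes).

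**Figure D5:**
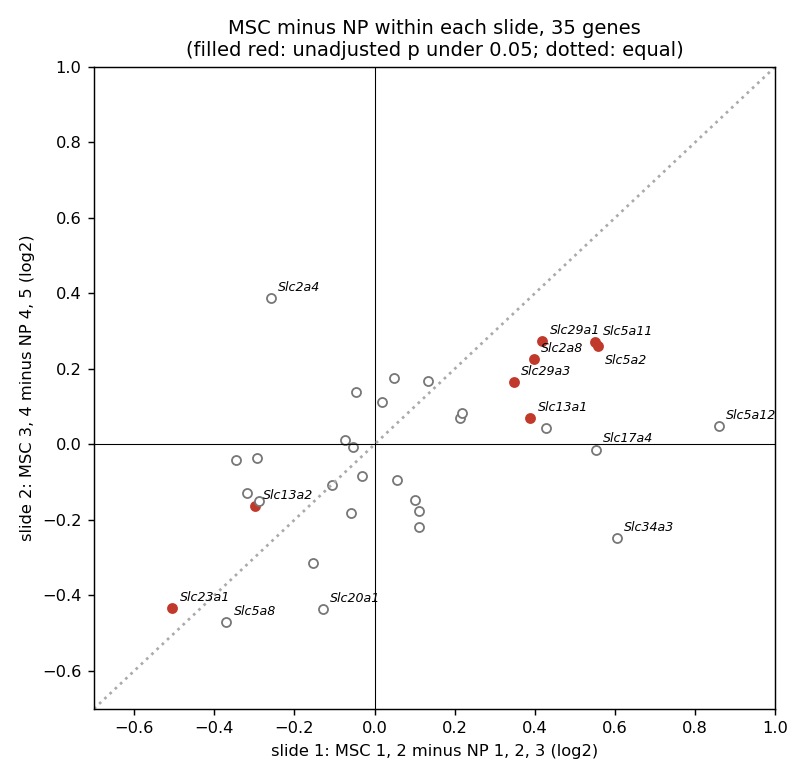
Difference MSC minus NP of the mean log2 intensity on slide 1 (horizontal axis) against slide 2 (vertical axis) for 35 genes. Filled red marks the 8 genes with an unadjusted limma p under 0.05, which were picked on all 9 arrays together, and Slc2a4 (-0.26 and 0.39) and Slc34a3 (0.60 and -0.25) lie in those of opposite sign.

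Of the 17 members that did not pass the filter, 10 were not well above background on any array, among them Slc2a3, the glucose carrier GLUT3 of neurons and white cells, and the vesicular glutamate carriers Slc17a6, Slc17a7 and Slc17a8. Slc13a4, another of the 10, read from 7.89 to 7.94 in NP and from 7.94 to 8.06 in MSC kidneys. Although it was not well above background, every MSC array lay above every NP array (log2 difference 0.09, exact permutation p 0.00794, limma p 0.0368 without a filter). Slc2a10, Slc2a7 and Slc5a5 were well above background on 1 MSC array each. Slc17a9, Slc2a6, Slc2a9 and Slc29a4 were well above background on all 9 arrays and still fell below the filter. Slc2a9 encodes GLUT9, a urate carrier of the kidney. It read 8.36, 8.48, 8.45, 8.47 and 8.65 in NP 1 to 5 and 8.70, 8.68, 8.71 and 8.65 in MSC 1 to 4. NP 5 and MSC 4 were level to the second decimal, and the other MSC kidneys were above all NP kidneys (exact permutation p 0.0238). When the filter was replaced by the scanner software's call of well above background, the Slc2a9 log2 fold change was 0.20 (SE 0.07, limma p 0.0182, FDR 0.38). The other 3 genes gave 0.04, -0.06 and -0.13 in that fit, for Slc17a9, Slc2a6 and Slc29a4, with limma p of 0.65, 0.46 and 0.24.

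Genes known to regulate or assist these carriers were examined as a list of 28, of which 24 were tested. They include Pdzk1 and Slc9a3r1, which hold carriers at the brush border, the receptors and enzymes of phosphate control (Pth1r, Fgfr1, Kl, Vdr, Cyp24a1, Cyp27b1), the transcription factor Hnf4a, and enzymes that use the substrates. Of the 24, 11 were higher and 13 lower in MSC kidneys, with a median log2 fold change of -0.0095. At an unadjusted limma p under 0.05, 1 was higher and 0 were lower, beside 6.65% and 5.11% of all genes, and none passed the FDR. The higher gene was Khk, the ketohexokinase that phosphorylates fructose. Khk read 9.69, 9.84, 9.84, 9.75 and 9.80 in NP 1 to 5 and 10.12, 10.23, 9.89 and 9.98 in MSC 1 to 4. By this probe every MSC kidney was above every NP kidney (log2 fold change 0.27, SE 0.09, limma p 0.0110, FDR 0.33). The other Khk probe was brighter, from 17.95 to 18.31 in NP and from 18.11 to 18.30 in MSC kidneys. It gave a log2 difference of 0.04 (SE 0.09, limma p 0.62), and the mean of both gave 0.16 (SE 0.08, limma p 0.070). Among probes past the filter, the brightest gave the lowest difference in Slc5a11, Slc20a2 and Khk, and the highest in Slc5a12, Slc17a4 and Slc28a2. The part of probe intensity in this was not tested. Pdzk1 gave 0.16 (SE 0.11, limma p 0.19), Pth1r 0.20 (SE 0.14, limma p 0.20) and Kl, which encodes the FGF23 co-receptor klotho, -0.0051 (SE 0.19, limma p 0.98). Cyp24a1, which breaks down vitamin D, had a log2 fold change of 0.46 (SE 0.25, limma p 0.093).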

How the data were processed

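Per the labels, total kidney RNA was amplified with a whole-transcript kit, labelled with Cy3 and hybridised to Agilent rat arrays. The authors read them with Agilent Feature Extraction 10.7.3.1, and the deposited scanner files give the mean intensity of each spot. The authors' deposited log2 values, made with limma, served as an alternative. They hold low probes that the stated filter would remove, and correlate across probes with the values used here with r from 0.99990 to 0.99997. Here the log2 mean intensities of gene and negative control spots, without background subtraction and without spots the software flagged as outliers, were normalized by cyclic loess (limma 3.58.1, R 4.3.3). Probes had to exceed, on 4 or more arrays, the 95th percentile of the negative controls' log2 values multiplied by 1.1, which left 15630 of 30367 gene probes. Replicate spots were averaged, and each of 13766 genes was represented by its most variable probe. MSC and NP kidneys were compared with limma, with the FDR by Benjamini and Hochberg over all genes tested, and single values by an exact two-sided permutation test. The fit was tested on simulated data. The intensity files hold no counts, and the number of arrays limits the precision. Genes carry the names in the scanner files. Of the 63 member probes 58 matched RefSeq by accession, with 0 symbols that differ.

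The members and the lists were chosen with earlier results of these data known. Named here were kidney members by function, the 2 genes with the smallest p in each family, members at an unadjusted p under 0.05, and members whose probes past the filter differ in sign with a p under 0.05. Slc2a5, Slc2a6, Slc5a6, Slc5a9, Slc13a5, Slc17a9, Slc28a2, Slc29a4 the members below the filter and the regulators given with values were added after their values were seen. Alternatives covered the normalization, background, filter, probe choice, weights, variance trend, slide and replicate blocks, the deposited values, each array left out, and, added after seeing the data, MSC 3 and MSC 4 left out. Single values of some regulators are not reported here.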

Additional observations from a re-analysis of the deposited data

Results flagged for a closer look

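In 4 of the 66 groups of arrays examined for the named genes that were tested and for the families, a single array lay far from the rest of its group, where chance alone gives about 3.3. The measure is the gap of the extreme array to its neighbour divided by the range of the group. It was 0.936 for Slc2a8 in MSC kidneys, where MSC 3 was highest at 9.70 and the others lay between 9.53 and 9.54. It was 0.873 for Slc2a12 in MSC kidneys, where MSC 2 was highest at 11.86. It was 0.802 for Slc5a10 in NP kidneys, where NP 2 was lowest at 15.07 and the others lay between 15.35 and 15.41. It was 0.715 for Slc5a12 in NP kidneys, where NP 1 was lowest at 10.63.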

How the results depend on the processing

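The number of arrays limits the precision, and 24 alternatives were run. No member passed the study's threshold in any of them. Of the named genes, 18 of 26 kept their sign throughout. An unadjusted limma p under 0.05 was found for Slc2a8, Slc23a1, Slc5a2 and Slc5a11 in 23 of 24 alternatives each, for Slc13a2 in 22, Slc29a3 in 17, Slc29a1 in 14 and Slc13a1 in 12. Causes were not tested. With the brightest probe per gene Slc5a11 was -0.092, and with scaling on the 75th percentile it was 0.63. Slc20a2 was 0.24 with quantile normalization, 0.37 with scaling on the 75th percentile, 0.27 with normexp background and 0.00046 with the mean of probes. With median scaling 2 members were higher and 1 lower at an unadjusted p under 0.05, and 1 regulator was lower, while the median of all genes was -0.04. The median of Slc20a and Slc34a was 0.12 with quantile normalization, 0.12 with the 75th percentile, 0.16 with normexp, 0.084 with each probe on its own and -0.10 with array weights. Without a filter the medians were 0.094 for Slc13a, 0.012 for Slc17a, -0.0085 for Slc23a and 0.053 for Slc28a and Slc29a. The Slc5a median was 0.029 with array weights and 0.035 without MSC 3 and MSC 4. Slc17a3 was -0.032 with the 75th percentile, -0.051 with median scaling, -0.15 with array weights, -0.020 with slide as a block, -0.028 in the deposited values and -0.067 without MSC 3 and MSC 4. Slc23a3 was -0.016, -0.034, -0.12 and -0.012 under the first 4 of these and -0.011 without MSC 3 and MSC 4. Slc13a3 was -0.0043 with the 75th percentile. Slc2a2 was 0.055 with array weights and 0.17 without MSC 3 and MSC 4, where Slc2a4 was -0.22, 4 members were higher and 1 was lower, and 2 regulators were lower. Higher regulators numbered 2 with each probe on its own, with array weights and with the replicate block, and 0 with the mean of probes or the brightest probe, and 2 regulators were lower with array weights.

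When each array was left out in turn, the higher members numbered 3 to 6 (3 without MSC 1) and the lower ones 2 to 4 (4 without MSC 2), and the regulators 1 to 2 higher and 0 to 1 lower. The unadjusted p rose above 0.05 for Slc13a1 without NP 1, NP 2, NP 4 or any of MSC 1 to 3, for Slc29a1 without NP 1 to 3, MSC 1, MSC 3 or MSC 4, for Slc29a3 without MSC 1, MSC 2 or MSC 4 and for Slc13a2 without MSC 1. The median of Slc2a ranged from -0.13 (without MSC 2) to 0.0053 (without NP 2), that of Slc5a from -0.10 (without MSC 1) to -0.022 (without MSC 3), that of Slc13a from -0.100 (without NP 5) to -0.0086 (without NP 3), that of Slc17a from 0.067 (without NP 2) to 0.21 and that of Slc23a from -0.29 to -0.19. The median of Slc20a and Slc34a ranged from -0.058 (without NP 2) to 0.060, that of Slc28a and Slc29a from 0.049 (without MSC 3) to 0.26 (without MSC 4), Slc17a3 from -0.10 to 0.10, Slc23a3 from -0.12 to 0.077, Slc2a2 from -0.19 to 0.090, Slc28a1 from -0.0029 to 0.11 and Slc2a4 from -0.058 to 0.19.

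Arrays of equal number in the NP and MSC groups did not deviate together throughout (r of 0.20, 0.32, -0.35 and 0.05 for numbers 1 to 4), so the numbers were not taken to pair kidneys. With the replicate block, in which NP 5 has no partner and carries no weight, 4 members were higher and 4 lower at an unadjusted p under 0.05.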
